A study of Mus musculus with 9 samples.

Results

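Brevican (Bcan), neurocan (Ncan), versican (Vcan), NG2 (Cspg4), neuroglycan C (Cspg5), Sparc, Sparcl1, tenascin C (Tnc), receptor-type protein tyrosine phosphatase zeta (Ptprz1) and Cd44 are genes of the brain extracellular matrix and of its cell surface partners. All 10 were found by symbol among the 49315 genes of the count table. RNA was sequenced from 9 libraries of mouse cells sorted after a co-culture of 2 days, in which SB28 glioblastoma cells, a GFP-expressing line of C57BL6 background, grew with primary astrocytes of newborn mito::mKate2 C57BL6 mice, in which mKate2, a red fluorescent protein, labels mitochondria. The sort gave SB28 cells that held astrocyte mitochondria (mKate2+), SB28 cells that did not (mKate2-), and the astrocytes, with 3 libraries of each. All 3 groups were sorted from untreated co-cultures, per the labels in DMEM F12 medium with 2% FBS, 5% N2 supplement, and EGF and FGF at 20 ng/ml, so no library shows either cell type grown alone. SB28 is 1 cell line, and cells were told apart only by their fluorescence at sorting. The libraries held 24454561 to 35135662 counts in astrocytes, 27187348 to 35891589 in mKate2- SB28 and 34175016 to 39287841 in mKate2+ SB28 cells.

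The matrix between brain cells is built on hyaluronan, a long sugar chain without a protein core. Lecticans (brevican, neurocan and versican) bind hyaluronan at one end and tenascins at the other, link proteins lock the first of these bonds, and CD44 holds hyaluronan at the cell surface. The chondroitin sulfate chains of these proteins are bound by receptors on neurons and glia, and astrocytes and glial precursors are main sources of the matrix in the brain.

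Both SB28 groups held less RNA of 8 of the 10 genes than the co-cultured astrocytes: Bcan, Ncan, Cspg4, Cspg5, Sparc, Sparcl1, Tnc and Ptprz1, where 22.4% (mKate2-) and 22.8% (mKate2+) of all genes tested were called lower. Of these, Bcan, Ncan, Cspg5 and Ptprz1 passed the filter on low counts through astrocytes alone and could only come out lower, which leaves 4 of the 6 genes that passed in both cell types. Vcan, the other lectican, stood at 73.9% of its astrocyte mean, and Cd44 was 1.70-fold higher in mKate2- and 1.75-fold higher in mKate2+ SB28 cells. None of the 10 genes separated mKate2+ from mKate2- SB28 cells. In bulk libraries, fewer cells of a type and less RNA per cell cannot be told apart.

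A pair of libraries stood apart from their groups. Astrocyte replicate 3 held far more Sparcl1, Bcan and Ncan than the other astrocyte libraries. Replicate 2 of mKate2+ SB28 differed from replicates 1 and 3 by a chi-square over genes, divided by its degrees of freedom, of 148 and 134, whereas replicates 1 and 3 differed from each other by 17.3. By the same measure astrocyte libraries differed from each other by 82.0, 144 and 115, and mKate2- libraries by 32.1 to 56.0. Values without astrocyte replicate 3 or mKate2+ replicate 2 are given below for some of the genes.

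The label of the astrocyte libraries was compared with marker genes. The 12 astrocyte markers summed to 946, 900 and 1568 CPM (counts-per-million, which scale each count by the total of its library) in astrocyte replicates 1, 2 and 3. Apoe, a lipid carrier, was the most abundant of them in replicates 1 and 2 and Aldoc, a glycolytic enzyme, in replicate 3, while the gap junction gene Gjb6 was at 0 in all 3. Each SB28 library held 11.5% to 14.6% of the astrocyte mean of the summed markers, with Sox9, a transcription factor, as the most abundant gene there. Among the more restricted markers, the glutamate transporter Slc1a3 lay at 0.287% to 1.22% of its astrocyte mean in the SB28 libraries, and Apoe at 0.740% to 1.22%. The astrocyte libraries also held oligodendrocyte lineage transcripts, 957, 523 and 589 CPM summed over 10 markers. Olig1, a transcription factor of glial precursors, was the most abundant at 541, 241 and 304 CPM. Olig2, Cnp and Pdgfra averaged 194, 113 and 19.1 CPM in astrocytes, while Sox10, Gpr17, Mog and Mag averaged at most 0.0747 CPM there. The sum over the 10 markers was 34.3 to 44.7 CPM in the SB28 libraries.

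The promoters of 4 genes are shown because these genes span the range of responses: Bcan and Ptprz1 were below 1 CPM in every SB28 library, Tnc was intermediate, and Cd44 was higher in SB28 cells. Of the 10 genes, 8 had a promoter in the RefSeq table, and the sequences are RefSeq's 250 bases before the start of transcription on build GRCm38.p6, written 5′ to 3′ on the strand of the gene. Capitals mark matches, on either strand, to TGANTCA (AP-1, which reads alike on both strands), GGAATG (TEAD), TTGGCA (the half-site of NFI), ACAANG (SOX) or CANATG (an E-box). Bcan lies at chr3:88000357-88000606 on the minus strand, Ptprz1 at chr6:22875252-22875501 on the plus strand, Tnc, before the outermost of its RefSeq starts, at chr4:64047016-64047265 on the minus strand and Cd44 at chr2:102901666-102901915 on the minus strand.
Bcan: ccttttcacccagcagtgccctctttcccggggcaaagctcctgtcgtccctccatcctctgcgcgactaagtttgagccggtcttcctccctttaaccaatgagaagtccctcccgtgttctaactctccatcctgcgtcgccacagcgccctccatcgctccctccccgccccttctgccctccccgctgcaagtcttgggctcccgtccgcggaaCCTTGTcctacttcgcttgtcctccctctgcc
Ptprz1: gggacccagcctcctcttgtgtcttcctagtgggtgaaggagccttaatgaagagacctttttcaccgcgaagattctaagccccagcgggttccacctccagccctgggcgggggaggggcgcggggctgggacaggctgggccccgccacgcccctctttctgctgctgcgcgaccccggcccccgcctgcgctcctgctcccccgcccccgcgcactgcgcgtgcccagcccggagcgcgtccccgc
Tnc: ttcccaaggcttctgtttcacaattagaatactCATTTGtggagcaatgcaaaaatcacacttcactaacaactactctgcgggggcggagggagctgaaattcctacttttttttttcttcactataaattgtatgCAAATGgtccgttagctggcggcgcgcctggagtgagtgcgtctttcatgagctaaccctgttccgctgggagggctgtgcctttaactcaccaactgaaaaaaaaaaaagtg
Cd44: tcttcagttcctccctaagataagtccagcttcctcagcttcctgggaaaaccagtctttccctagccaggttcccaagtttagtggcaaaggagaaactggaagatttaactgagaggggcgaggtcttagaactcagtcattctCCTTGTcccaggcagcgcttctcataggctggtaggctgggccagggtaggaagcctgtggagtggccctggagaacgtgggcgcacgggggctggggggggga

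Counted from -1 at the base before the start, the Bcan promoter held a SOX match on the reverse strand at -32 to -27 and the Cd44 promoter one at -104 to -99. The Bcan positions rest on the RefSeq start alone, which lies outside the gene as annotated in GENCODE M21 (end at chr3:88000230). A stretch after that start was found in 0 GENCODE transcripts of Bcan, against 1 each for Ptprz1, Tnc and Cd44. The Tnc promoter held E-box matches at -113 to -108 on its own strand and at -217 to -212 on the reverse strand, and the letters searched for were not in the Ptprz1 window. No matches overlapped in these 4 windows. Over the 32851 promoters of the table, 36.3% held the SOX letters, 35% the E-box, 12.6% the TEAD, 12.3% the NFI and 6.75% the AP-1 letters. Over the 12947 promoters of expressed genes these shares were 28.6%, 23.1%, 10.6%, 9.86% and 4.49%, in the same order. G and C made up 71.6% of the Ptprz1 window, 62% of the Bcan, 56.4% of the Cd44 and 44.8% of the Tnc window, against a median of 52.4% over all promoters, and the windows held 22, 16, 5 and 8 CG steps.

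The first comparison asked how the matrix genes of SB28 cells differed from those of the astrocytes they grew beside. A gene was called where edgeR's quasi-likelihood test gave an adjusted p under 0.05 and the fold exceeded 2 (a log2 fold change beyond 1). For mKate2- SB28 cells, 8 of the 10 genes were lower and 0 higher, where 33.9% of the 13356 genes tested were called, 22.4% lower and 11.5% higher. The same 8 were lower in mKate2+ SB28 cells, where 35.0% of 13342 genes were called, 22.8% lower and 12.2% higher. Of the 10, Bcan, Ncan, Cspg5 and Ptprz1 passed the filter on low counts through the astrocyte libraries alone, so that these 4 could only come out lower, and their counts are given as a description. Of the 6 genes that passed in both cell types, 4 were lower and 2 were not called in each comparison. The median log2 fold change of these 6 was -1.95 in mKate2- and -1.98 in mKate2+ cells, and that of all genes tested was -0.038 and -0.018. The medians and shares over all genes include genes that passed the filter through astrocytes or SB28 cells alone. The 2 comparisons share their astrocyte libraries, so their values are given side by side.

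**Figure D1:**
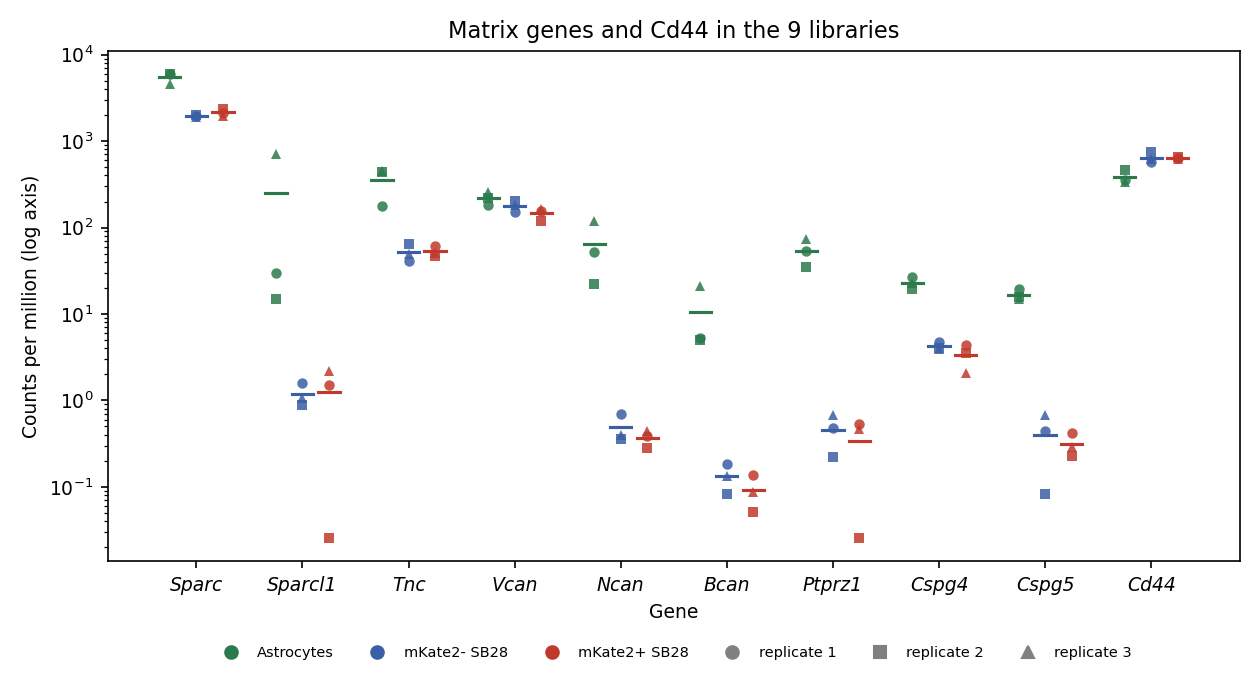
Level of each gene in CPM (log axis) in the 9 libraries; colour gives the group and symbol shape the replicate, with 1 point per library. Bcan, Ncan, Cspg5, Sparcl1 and Ptprz1 lie far lower in all 6 SB28 libraries than in astrocytes, Vcan levels lie close together, and the SB28 points of Cd44 lie above its astrocyte points.

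Brevican and neurocan are the lecticans of the mature and the developing brain matrix, respectively. Bcan (ENSMUSG00000004892, chr3:87987531-88000230) stood at 5.32, 4.98 and 21.3 CPM in astrocyte replicates 1, 2 and 3. In SB28 cells it stood at 0.184, 0.0836 and 0.134 CPM in the mKate2- and at 0.139, 0.0509 and 0.0878 CPM in the mKate2+ libraries, which is 2 to 5 counts in each. Groups did not overlap, and replicate 3 set the upper end in astrocytes. The log2 fold change was -6.27 ± 0.77 (SE) in mKate2- and -6.71 ± 0.81 in mKate2+ cells, and -5.26 and -5.71 without astrocyte replicate 3. These values are a description, as Bcan passed the filter on low counts through astrocytes alone.

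Ncan (ENSMUSG00000002341) measured 51.6, 22.2 and 119 CPM in astrocytes. It measured 0.699, 0.362 and 0.402 CPM in mKate2- and 0.388, 0.280 and 0.439 CPM in mKate2+ SB28 cells, so that every SB28 library was below 1 CPM. For Ncan the log2 fold change was -7.04 ± 0.73 (SE) in mKate2- and -7.36 ± 0.72 in mKate2+ cells, a 132-fold and a 165-fold lower level. Without astrocyte replicate 3 the log2 fold changes were -6.26 and -6.60. They are a description, as Ncan passed the filter on low counts through astrocytes alone.

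Versican is the lectican of provisional and tumor matrix. Vcan (ENSMUSG00000021614) stood at 181, 221 and 255 CPM in astrocytes, at 150, 201 and 183 CPM in mKate2- and at 155, 119 and 163 CPM in mKate2+ SB28 cells. The mKate2- range overlapped that of astrocytes, and all 3 mKate2+ libraries lay below it. The log2 fold change was -0.28 ± 0.15 in mKate2- cells (SE, edgeR adjusted p = 0.144, 95% interval -0.64 to 0.075) and -0.51 ± 0.16 in mKate2+ cells (edgeR adjusted p = 0.0246), neither of them a 2-fold change. The mKate2+ value missed the threshold without astrocyte replicate 2 or 3 or mKate2+ replicate 1 or 2, the last of these the library with the least Vcan (log2 fold change -0.41, edgeR adjusted p = 0.0643). It also missed it at -0.21 (edgeR adjusted p = 0.086) with the trend of level with gene length removed from each library. The mKate2- value passed the p threshold without astrocyte replicate 1 (log2 fold change -0.40, edgeR adjusted p = 0.0443).

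The mix of lecticans differed between the cell types, with no overlap between astrocyte and SB28 libraries. On the scale of TPM (transcripts-per-million, which also divide each count by the gene's exonic length), Vcan made up 59.7%, 78.0% and 44.7% of the summed Bcan, Ncan and Vcan level in astrocyte replicates 1, 2 and 3. Its share was 99.1% ± 0.446 (SD, n = 3) in mKate2- and 99.3% ± 0.0962 (SD, n = 3) in mKate2+ SB28 cells. Ncan made up 34.1%, 15.8% and 42.0% in the astrocyte libraries and Bcan 6.22%, 6.26% and 13.3%. The summed level itself was 84.4 ± 39.1 TPM in astrocytes, 40.3 ± 9.37 TPM in mKate2- and 31.9 ± 10.3 TPM in mKate2+ cells (SD, n = 3 each).

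**Figure D2:**
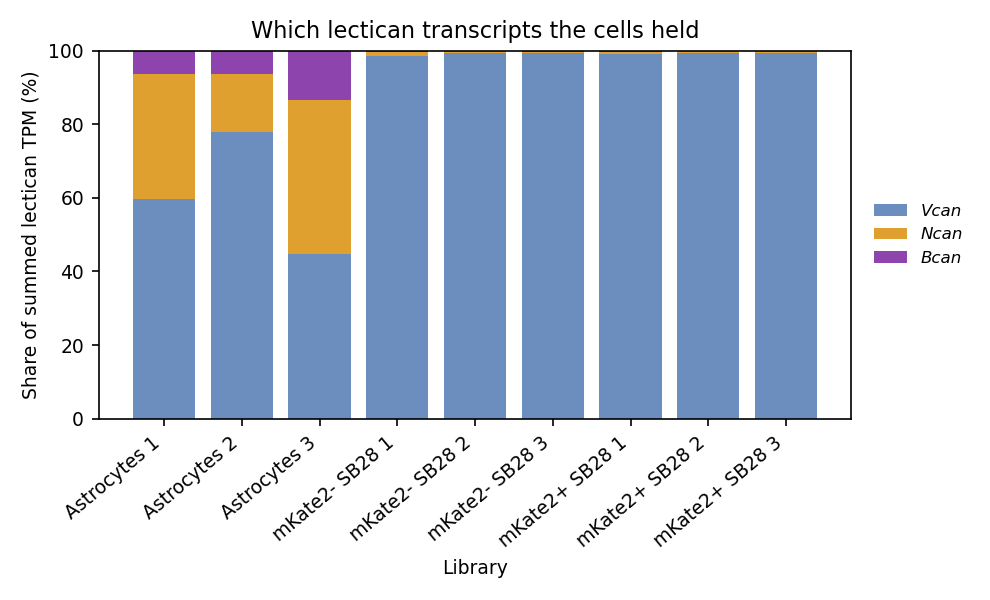
Share (%) of each lectican in the summed TPM of Bcan, Ncan and Vcan, 1 stacked bar per library. Vcan takes between 44.7% and 78.0% in the astrocyte libraries and at least 98.6% in each SB28 library.

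The transmembrane proteoglycans were lower in SB28 cells to unequal degrees. Cspg4 (ENSMUSG00000032911), which encodes NG2, a marker of glial precursors and pericytes, stood at 26.9, 19.3 and 22.6 CPM in astrocytes, at 4.78, 4.04 and 3.95 CPM in mKate2- and at 4.38, 3.54 and 2.05 CPM in mKate2+ SB28 cells. Groups of SB28 and astrocyte libraries did not overlap, and SB28 cells kept a measurable level. Its log2 fold change was -2.42 ± 0.20 (SE, edgeR adjusted p = 4.26e-05) in mKate2- and -2.71 ± 0.31 (edgeR adjusted p = 0.000262) in mKate2+ cells.

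Cspg5 (ENSMUSG00000032482), a neural proteoglycan with an EGF-like domain, stood at 19.3, 15.6 and 14.7 CPM in astrocytes. In SB28 cells it stood at 0.441, 0.0836 and 0.670 CPM (mKate2-) and 0.416, 0.229 and 0.293 CPM (mKate2+). The fall was 42.0-fold in mKate2- (log2 fold change -5.39 ± 0.55, SE) and 50.1-fold in mKate2+ cells (log2 fold change -5.65 ± 0.30). These values are a description, as Cspg5 passed the filter on low counts through astrocytes alone. Without mKate2- replicate 3 the mKate2- value was -6.02, and without mKate2- replicate 2, which held 3 counts, -4.87. Here astrocyte replicate 3 was the lowest of its group, unlike for Bcan and Ncan.

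Ptprz1 (ENSMUSG00000068748, chr6:22875502-23052916) encodes a receptor phosphatase whose secreted form, phosphacan, is a chondroitin sulfate proteoglycan. It was present at 54.1, 34.5 and 72.9 CPM in astrocytes, at 0.478, 0.223 and 0.670 CPM in mKate2- and at 0.527, 0.0255 and 0.468 CPM in mKate2+ SB28 cells. The value of mKate2+ replicate 2 was 1 count, and the other SB28 libraries held 8 to 20. The log2 fold change was -6.88 ± 0.44 (SE) in mKate2- and -7.26 ± 0.65 in mKate2+ cells, the latter -6.70 without mKate2+ replicate 2. These values are a description, as Ptprz1 passed the filter on low counts through astrocytes alone. Counts per gene do not separate the receptor from phosphacan, nor the splice forms of Vcan and Cd44.

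Sparc and Sparcl1 encode related matricellular proteins: Sparc binds collagen and alters cell adhesion, and Sparcl1 (hevin) is an astrocyte protein known for its part in synapse formation. Sparc (ENSMUSG00000018593) stood at 5979, 5939.7 and 4629 CPM in astrocytes, at 1951, 2008 and 1909 CPM in mKate2- and at 2127, 2369 and 1934 CPM in mKate2+ SB28 cells. Both SB28 groups lay below every astrocyte library while keeping a high level. That is a log2 fold change of -1.48 ± 0.16 (SE, edgeR adjusted p = 0.000137) in mKate2- and -1.29 ± 0.18 (edgeR adjusted p = 0.000655) in mKate2+ cells.

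Sparcl1 (ENSMUSG00000029309) was the most uneven gene. Astrocyte replicates 1, 2 and 3 held 29.9, 14.8 and 716 CPM, mKate2- SB28 cells 1.58, 0.892 and 1.07 CPM, and mKate2+ SB28 cells 1.498, 0.0255 and 2.19 CPM. All astrocyte libraries were above all SB28 libraries, but astrocyte replicate 3 decided the size of the difference. The log2 fold change was -7.73 ± 1.69 (SE, edgeR adjusted p = 0.00485) in mKate2- and -7.63 ± 1.85 (edgeR adjusted p = 0.00884) in mKate2+ cells. Without astrocyte replicate 3 it was -4.25 (edgeR adjusted p = 3.47e-05) and -4.16 (edgeR adjusted p = 0.00651). Without mKate2+ replicate 2 or 3 the mKate2+ value was -7.04 or -8.32, and with the replicate number as a block the values were -6.00 and -6.65.

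Tenascin C, a large adhesion-modulating glycoprotein that binds lecticans and the phosphatase encoded by Ptprz1, lay between these extremes. Tnc (ENSMUSG00000028364, chr4:63959785-64047015) stood at 179, 436 and 457 CPM in astrocytes, at 40.9, 64.5 and 49.0 CPM in mKate2- and at 61.6, 47.3 and 50.2 CPM in mKate2+ SB28 cells. Astrocyte replicate 1 was the low library of its group and was still above all SB28 libraries. Its log2 fold change was -2.77 ± 0.35 (SE, edgeR adjusted p = 0.00034) in mKate2- and -2.67 ± 0.34 (edgeR adjusted p = 0.000418) in mKate2+ cells. The gene shares 176 exonic bases with 8030451A03Rik on the opposite strand, and whether strand was used in counting is not given in the sources used here; that gene had 82 counts in all 9 libraries against 45361 for Tnc.

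CD44, the hyaluronan receptor and a surface marker of mesenchymal glioma cells, was the one gene of the 10 that was higher in SB28 cells. Cd44 (ENSMUSG00000005087, chr2:102811141-102901665) stood at 359, 459 and 337 CPM in astrocytes, at 570, 746 and 621 CPM in mKate2- and at 632, 658 and 621 CPM in mKate2+ SB28 cells. The 6 SB28 libraries all lay above the 3 astrocyte libraries. In log2 terms Cd44 was higher by 0.76 ± 0.16 in mKate2- cells (SE, edgeR adjusted p = 0.00409, 95% interval 0.39 to 1.13) and 0.80 ± 0.15 in mKate2+ cells (edgeR adjusted p = 0.00288), so Cd44 passed the p but not the 2-fold threshold. Without astrocyte replicate 3 the values were 0.67 and 0.69. Among all genes tested, 33.8% had all mKate2- libraries above and 37.3% all below the astrocyte libraries, and for mKate2+ cells the shares were 29.4% and 37.7%.

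**Figure D3:**
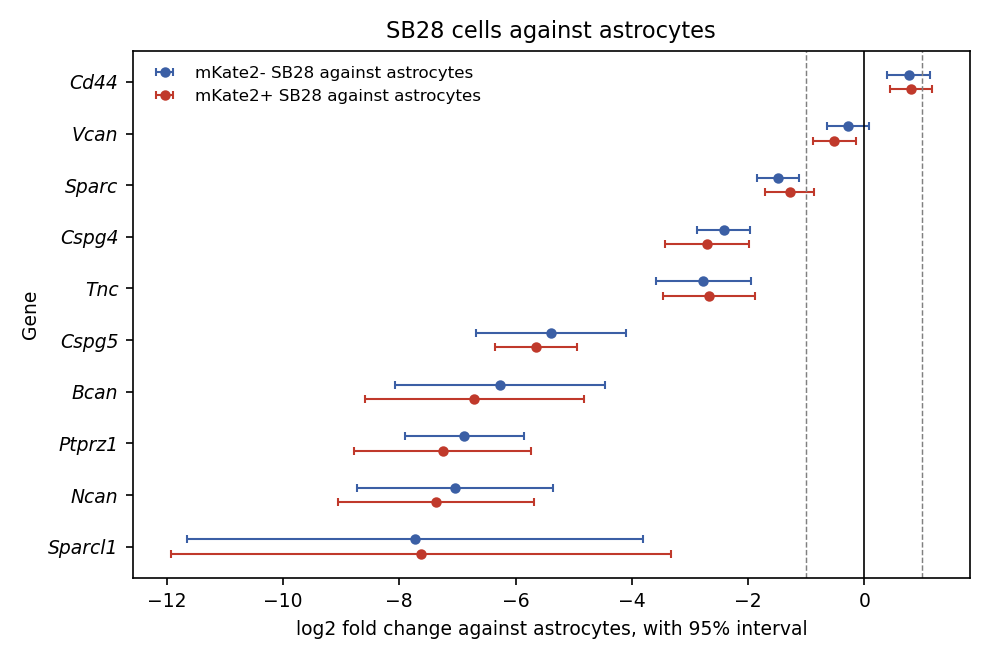
Log2 fold change of each gene against astrocytes (edgeR) with its 95% interval, for mKate2- and mKate2+ SB28 cells; the vertical lines mark no change and the 2-fold limits. The values run from -7.73 for Sparcl1 in mKate2- cells to 0.80 for Cd44 in mKate2+ cells, and the widest intervals are those of Sparcl1.

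The share of each gene's astrocyte mean that was seen over the 6 SB28 libraries ranged widely. It was 0.666% for Ncan, 0.741% for Ptprz1, 1.08% for Bcan and 2.15% for Cspg5, and 1.16%, 0.900%, 2.20% and 2.03% against astrocyte replicates 1 and 2 alone. For Sparcl1 it was 0.478%, but 5.42% without astrocyte replicate 3. The astrocyte markers gave unequal shares by the same measure, from 0.508% for Slc1a2, 0.592% for Slc1a3 and 1.004% for Apoe over 1.62% for Gfap, the astrocyte filament gene, and 5.09% for Aldh1l1, a folate enzyme, to 31.5% for Glul, glutamine synthetase, and 50.9% for Sox9. Without astrocyte replicate 3 these were 1.56% for Slc1a2, 0.661% for Slc1a3, 1.014% for Apoe, 2.797% for Gfap, 5.72% for Aldh1l1, 35.7% for Glul and 50.5% for Sox9. Aqp4 moved from 0.873% to 3.37%, Aldoc from 1.46% to 4.92% and Fgfr3 from 3.03% to 8.88% when that library was left out. S100b, at a mean of 0.952 CPM in astrocytes, moved from 26.2% to 72.0%. The part that astrocyte RNA in the sorted SB28 cells had in the lowest levels was not tested. The other genes stood at 14.6% for Tnc, 16.5% for Cspg4, 37.2% for Sparc, 73.9% for Vcan and 167% for Cd44.

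Per transcript length, the genes were ordered in each group. In astrocytes the mean TPM fell from Sparc (4551) over Sparcl1 (281), Cd44 (180), Tnc (149), Vcan (48.0), Ncan (28.1), Ptprz1 (11.8), Bcan (8.30) and Cspg4 (5.95) to Cspg5 (5.10). The second place of Sparcl1 rested on astrocyte replicate 3 (799 TPM, against 27.6 and 17.2 TPM in replicates 1 and 2). Over replicates 1 and 2 the order was Sparc, Cd44 (188), Tnc (127), Vcan (43.2), Sparcl1 (22.4), Ncan (15.01), Ptprz1 (9.29), Cspg4 (5.81), Cspg5 (5.26) and Bcan (3.87), so that Sparc, Cd44, Tnc and Vcan led there as they did in SB28 cells. The ranges of neighbours in the order of all 3 libraries were separate only between Sparc and Sparcl1, Tnc and Vcan, and Cspg4 and Cspg5. In mKate2- SB28 cells Sparc (mean 1663 TPM) was followed by Cd44 (308), Vcan (39.97) and Tnc (21.5), and the other 6 genes lay at or below 1.27 TPM. In mKate2+ SB28 cells the same 4 led, with Sparc at 1726, Cd44 at 289, Vcan at 31.7 and Tnc at 21.3 TPM, the ranges of the last pair overlapping. The ratio of Cd44 to Tnc in TPM was 1.45 ± 0.759 in astrocytes, 14.6 ± 1.36 in mKate2- and 13.97 ± 2.09 in mKate2+ cells (SD, n = 3 each).

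Summed over the 10 genes, astrocytes held 6899 ± 262 CPM, mKate2- SB28 cells 2838 ± 164 CPM and mKate2+ SB28 cells 2984 ± 212 CPM (SD, n = 3 each). Sparc was 79.8%, 69.0% and 71.7% of this sum. Of the remainder, Cd44 was 31.2% ± 12.6 in astrocytes, 73.2% ± 0.985 in mKate2- and 75.7% ± 3.20 in mKate2+ cells (SD, n = 3 each).

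Astrocyte replicate 3 differed from its group in some of these genes and not in others. Relative to the mean of replicates 1 and 2 it held 32.0 times the Sparcl1, 4.13 times the Bcan, 3.22 times the Ncan, 1.65 times the Ptprz1 and 1.48 times the Tnc. Cspg4 (0.981 times), Cspg5 (0.843), Cd44 (0.824) and Sparc (0.777) were not raised. On the scale of log2(CPM + 0.1), the differences of 4.99 for Sparcl1, 2.02 for Bcan and 1.69 for Ncan stood at percentiles 99.9, 98.4 and 97.6 of the 12994 genes compared. Astrocyte markers moved with them to unequal degrees: the water channel Aqp4 by 3.24, Aldoc by 3.01, the glutamate transporter Slc1a2 by 2.84, Fgfr3, a growth factor receptor, by 2.75 and Gfap by 1.65, but Glul by 0.49, Aldh1l1 by 0.45, Slc1a3 by 0.43, Apoe by 0.044 and Sox9 by -0.03. The part of these markers in the result was not tested. The same 8 genes were called with this or any other library left out, which for Bcan, Ncan, Cspg5 and Ptprz1 is a description.

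**Figure D4:**
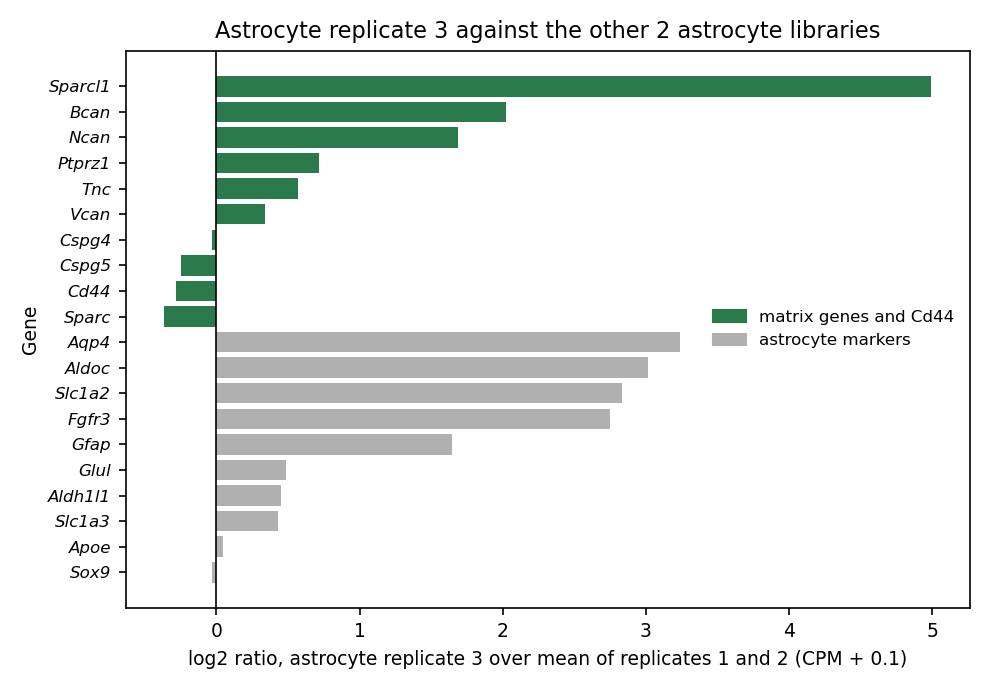
Log2 ratio of astrocyte replicate 3 to the mean of astrocyte replicates 1 and 2 (CPM + 0.1), for the matrix genes with Cd44 and for astrocyte markers; each bar is 1 gene. Sparcl1 has the longest bar at 4.99, and Cspg4, Cspg5, Cd44 and Sparc are near or below 0.

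The second comparison asked whether SB28 cells that held astrocyte mitochondria differed from those that did not. Of the 10 genes, 6 passed the filter on low counts in the 6 SB28 libraries, and none of these was called; over all 11854 genes, 0 (0%) had an edgeR adjusted p under 0.05, the smallest being 0.923, and 241 had an unadjusted p under 0.05. DESeq2 also called 0. The study used a looser rule, a rise above 1.5-fold with an unadjusted p under 0.05 and a count above 50; applied here in both directions, with the count taken as the mean normalized count, 43 genes (0.363%) passed, 23 higher and 20 lower, and 0 of the 10. Bcan, Ncan, Cspg5 and Ptprz1, at less than 1 CPM in each SB28 library, were not tested.

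The ranges of the mKate2+ and mKate2- libraries overlapped for all 10 genes, and among all genes tested the mKate2+ libraries were all above in 2.16% and all below in 6.67%. For Cd44 the log2 fold change was 0.033 ± 0.12 (SE, 95% interval -0.25 to 0.32, edgeR adjusted p = 0.972), for Tnc 0.090 ± 0.17 (interval -0.30 to 0.48) and for Sparc 0.19 ± 0.12 (interval -0.09 to 0.47). The interval of Vcan ran from -0.54 to 0.060 around -0.24, and that of Cspg4 from -0.95 to 0.35 around -0.30. Changes of 1.5-fold in either direction thus lay outside the intervals of Cd44, Tnc, Sparc and Vcan, a fall of 1.5-fold lay inside that of Cspg4, and the interval of Sparcl1, -1.87 to 2.04, spanned a 2-fold change in both directions. The library mKate2+ replicate 2 was the lowest of the 6 for Bcan, Ncan, Vcan, Sparcl1 and Ptprz1. Of the 11 astrocyte markers above 0 in SB28 cells it was the lowest library, or tied for it, for 6, among them Slc1a3 and Apoe, and the highest for 2, Aldh1l1 and Glul. Its summed astrocyte markers, 159 CPM, lay within the range of 131 to 166 CPM of the other SB28 libraries, and the part of these in the values was not tested. Without it, Vcan was at -0.16, Sparcl1 at 0.66 and Cd44 at -0.041, with 0 genes called.

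**Figure D5:**
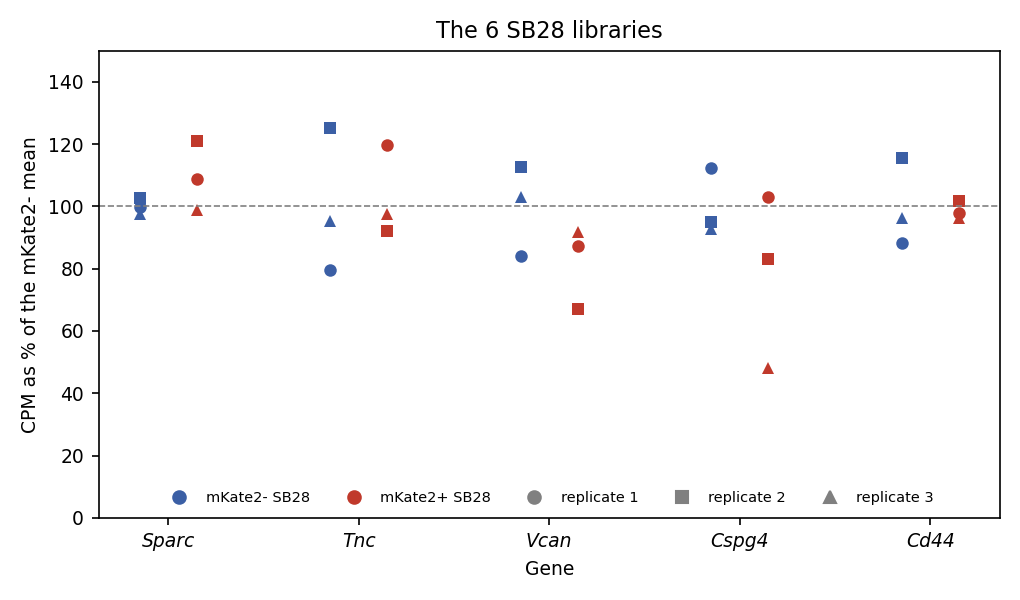
CPM of the genes in each SB28 library as a percentage of the mKate2- mean, for Sparc, Tnc, Vcan, Cspg4 and Cd44; colour gives the group and symbol shape the replicate. The dashed line is the mKate2- mean (100%), and the mKate2+ points overlap the mKate2- points for each of these genes.

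The other genes of the matrix were read against the shares of all genes tested that were called: 11.5% higher and 22.4% lower in mKate2-, and 12.2% higher and 22.8% lower in mKate2+ cells. Of 13 genes for hyaluronan synthesis, breakdown and link proteins, 11 were tested in mKate2- cells, where 2 were higher, 5 lower and 4 not called; in mKate2+ cells 10 were tested, with 2 higher and 5 lower. Of these, 4 passed the filter through astrocytes alone, Hapln1 among them, and over the 6 that passed in both cell types 2 were higher and 2 lower, with a median log2 fold change of -0.050 in mKate2- and 0.028 in mKate2+ cells. Has2, a hyaluronan synthase, rose from 2.39 ± 1.57 CPM in astrocytes to 8.84 ± 3.35 CPM in mKate2- (log2 fold change 1.90 ± 0.57, SE, edgeR adjusted p = 0.0195) and 8.20 ± 2.13 CPM in mKate2+ SB28 cells (SD, n = 3 each). The link protein gene Hapln1 fell from 17.0 CPM to 0.248 CPM in mKate2- and 0.0562 CPM in mKate2+ cells. Cemip, which is needed for hyaluronan breakdown, fell from 171 CPM to 55.0 and 51.0 CPM. Hyal2, a hyaluronidase, and Cemip2 were not called, at 82.3 and 59.3 CPM in astrocytes and 49.5 and 90.1 CPM in mKate2- cells. Both passed the p but not the 2-fold threshold in mKate2- cells (log2 fold change -0.72 and 0.63, edgeR adjusted p = 0.00862 and 0.0465). In mKate2+ cells both missed the p threshold (edgeR adjusted p = 0.0539 and 0.0753).

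Enzymes that build chondroitin sulfate had a median log2 fold change of 0.0113 in mKate2- and 0.0105 in mKate2+ cells over the 19 that passed the filter in both cell types. Of 22 listed, 20 were tested; 3 were higher and 4 lower in mKate2-, and 4 higher and 5 lower in mKate2+ cells. Without Xylt1, which passed through astrocytes alone, the counts were 3 higher and 3 lower in mKate2-, and 4 and 4 in mKate2+ cells. Xylt1, a xylosyltransferase gene for the start of the chain on the core protein, fell from 20.7 CPM in astrocytes to 0.127 CPM in mKate2- and 0.211 CPM in mKate2+ SB28 cells. Its mKate2+ mean rested on replicate 1, at 0.388 CPM against 0.127 and 0.117 CPM in replicates 2 and 3. Xylt2, the other xylosyltransferase gene of the list, is named here after its values were seen. It was not called, at 38.4 CPM in astrocytes, 37.3 CPM in mKate2- and 35.0 CPM in mKate2+ cells. Ust, a uronyl sulfotransferase, rose from 11.7 CPM to 54.5 and 52.9 CPM (log2 fold change 2.24 and 2.26). The widely used chain enzymes Chsy1, Chpf and Fam20b were not called. Chsy1 passed the p but not the 2-fold threshold in mKate2- and mKate2+ cells (log2 fold change 0.47 and 0.53, edgeR adjusted p = 0.00678 and 0.00805). So did Chpf (log2 fold change -0.88 and -0.71, edgeR adjusted p = 0.000868 and 0.00283).

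Of 7 proteases of the ADAMTS family that cleave lecticans, 5 were tested and 2 were lower in both SB28 groups, of which Adamts5 passed the filter through astrocytes alone. Adamts1 fell from 136 ± 52.2 CPM in astrocytes to 25.3 ± 5.54 CPM in mKate2- and 21.9 ± 0.932 CPM in mKate2+ cells (SD, n = 3 each), and Adamts5 from 9.60 ± 11.7 CPM to 0.329 and 0.308 CPM. Astrocyte replicate 3 was again the high one for Adamts5, at 23.1 CPM against 1.96 and 3.73 CPM in replicates 1 and 2. Adamts4 and Adamts9 were not called, with 67.9 and 26.6 CPM in astrocytes and 45.6 and 17.5 CPM in mKate2- cells. Adamts9 passed the p but not the 2-fold threshold in mKate2+ cells (log2 fold change -0.72, edgeR adjusted p = 0.0388).

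Of 10 listed partners of CD44, 9 were tested, and 1 was higher, 1 lower and 7 not called in each comparison, where 8831 of the 13356 genes tested in mKate2- cells were not called. Hmmr, another hyaluronan-binding protein with a part in mitosis, rose from 48.6 CPM to 132 and 112 CPM. Ezr, which encodes ezrin, a link between membrane proteins and actin, fell from 259 CPM to 79.3 and 79.0 CPM. Of its relatives, radixin (Rdx) and moesin (Msn) were not called, at 198 and 1301 CPM in astrocytes and 321 and 1547 CPM in mKate2- cells. The ligand osteopontin (Spp1) was not called either, at 1799 CPM in astrocytes, 2300.3 CPM in mKate2- and 2234 CPM in mKate2+ cells. Rdx passed the p but not the 2-fold threshold in mKate2- and mKate2+ cells (log2 fold change 0.71 and 0.65, edgeR adjusted p = 0.00193 and 0.0098). So did Spp1 (log2 fold change 0.37 and 0.39, edgeR adjusted p = 0.0453 and 0.0412).

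Of 9 listed Ptprz1 ligands and chondroitin sulfate receptors, 7 were tested and lower in both SB28 groups, but Ptn, Mdk, Nrcam and Rtn4rl1 passed the filter through astrocytes alone and could only come out lower. The other 3, Ptprs, Ptprf and Ncam1, were lower with medians of -1.79 in mKate2- and -1.97 in mKate2+ cells. The Ptprz1 ligand pleiotrophin (Ptn) fell from 117 CPM in astrocytes to 0.866 CPM in mKate2- and 0.398 CPM in mKate2+ cells; astrocyte replicate 3 carried that mean, at 261 CPM against 43.9 and 47.7 CPM in replicates 1 and 2. The receptor phosphatase Ptprs fell from 706 CPM to 202 and 171 CPM, its relative Ptprf from 449.9 CPM to 16.9 and 14.8 CPM, and the adhesion molecule Ncam1 from 248 CPM to 83.1 and 70.9 CPM.

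Among 9 relatives of Tnc and Sparc, listed with the lectican gene Acan, which was not tested, 6 were tested and 5 were lower in both SB28 groups, 4 of them (Tnr, Tnn, Smoc2 and Spock2) having passed the filter through astrocytes alone. Tnr, the tenascin of the perineuronal matrix, fell from 9.93 CPM to 0.162 ± 0.122 and 0.131 ± 0.0991 CPM (SD, n = 3 each). The proteoglycan gene Spock2 fell from 7.40 CPM to 0.303 ± 0.153 and 0.201 ± 0.163 CPM (SD, n = 3 each). Tnr was highest among mKate2- libraries in replicate 3 (0.302 CPM), and Spock2 among mKate2+ libraries in replicate 1 (0.388 CPM). Fstl1, a secreted glycoprotein, fell from 972 CPM to 116 and 107 CPM. Of 16 heparan sulfate and leucine-rich proteoglycans, 12 were tested, with 1 higher and 5 lower in each comparison, 2 of the lower ones (Gpc2 and Fmod) through astrocytes alone. The glypican gene Gpc1 rose from 217 CPM to 502 and 496 CPM, while perlecan (Hspg2) and biglycan (Bgn) were not called. Hspg2 passed the p but not the 2-fold threshold in mKate2- and mKate2+ cells (log2 fold change -0.44 and -0.38, edgeR adjusted p = 0.0209 and 0.041). So did Bgn (log2 fold change -0.82 and -0.80, edgeR adjusted p = 0.00725 and 0.00723). Fibromodulin (Fmod) fell from 11.1 CPM to 0.154 ± 0.0997 and 0.159 ± 0.130 CPM (SD, n = 3 each), the latter highest in mKate2+ replicate 2 at 0.305 CPM. Has2, Cemip2, Fam20b, Chsy1, Adamts4, Adamts9, Ezr, Msn, Tnr, Ncam1 and Gpc1, and of the markers Olig1, Gpr17, Cnp, Pdgfra, Slc1a2, Fgfr3, Glul and Aldh1l1, share exonic bases with a neighbour on the opposite strand and Spp1, Gpc2, Glul, Aldh1l1 and Pdgfra with one on their own strand, which the counts may not separate. Between mKate2+ and mKate2- SB28 cells, 0 genes were called in any of these lists.

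The marker lists gave, beside the 10 tested of 12 astrocyte markers (9 lower, 1 not called in each comparison, 4 and 5 of the lower ones having passed the filter through astrocytes alone), 3 lower of 5 tested oligodendrocyte lineage markers (Olig2 through astrocytes alone in the mKate2+ comparison), 1 lower of 2 microglia and leukocyte markers (P2ry12, through astrocytes alone) and 0 called of 4 vascular and fibroblast markers. Of 4 tested neuron markers, 2 were lower in both SB28 groups (Stmn2 and Gad1, through astrocytes alone) and the tubulin gene Tubb3, at 11.001 CPM in astrocytes, 21.1 CPM in mKate2- and 22.7 CPM in mKate2+ cells, passed the 2-fold threshold in the latter. The microglia and leukocyte list summed to 29.4 to 40.8 CPM in astrocytes and 47.7 to 61.3 CPM in SB28 libraries, nearly all of it Tmem119. The vascular and fibroblast list summed to 1060 to 1494 CPM in astrocytes and 539 to 811 CPM in SB28 libraries, led by the collagen gene Col1a2.

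The genes nearest in pattern were taken by the root mean square difference of centred log2(CPM + 1) over the 9 libraries, against 9355 genes with a mean of at least 10 CPM. Cd44 was nearest to the kinase gene Pdk3 (0.0563) and to Pcgf5 (0.0855), with a median of 0.423 over all genes, and Vcan to Tdrd3 (0.077) and Rnf24 (0.0837), with a median of 0.451. Tnc was nearest to Adamts1 (0.205), Sparc to Laptm4a (0.0807) and Sparcl1 to the protease inhibitor gene Serpine2 (0.572), with medians of 1.38, 0.794 and 2.85. For genes below 1 CPM in SB28 cells the added 1 CPM sets much of the measure: Npnt, the nearest to Bcan at 0.176, stood at 55.2 CPM in astrocytes, 4.87 CPM in mKate2- and 5.74 CPM in mKate2+ cells, a smaller fold than that of Bcan. These distances are a description over libraries that share their groups.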

How the data were processed

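The deposited table holds whole-number counts per gene for 9 libraries, which the authors made with Trimmomatic 0.36, STAR 2.5.2b on GRCm38 and featureCounts (Subread 1.5.2). The annotation release and strand setting are not given in the sources used here. Each column was matched to a sample by name; the labels' gate text and the study's methods differ on which cells were stained with CellTrace Violet and on the shares of FBS and N2 in the medium, and libraries were taken by their names. Counts were tested with edgeR 4.0.16 in R 4.3.3 (quasi-likelihood test, TMM normalization, keeping genes that exceeded 1 CPM in 2 or more of the 6 fitted libraries, Benjamini-Hochberg adjustment over all genes tested), on the 6 libraries of each pair of groups. DESeq2 1.42.0 was an alternative, beside no filter, a replicate block, removal of a gene length trend, other size factors, 1 fit of all 9 libraries and leaving out each library. CPM used library totals, and TPM used exonic lengths of GENCODE M21. Gene positions are on GRCm38 from GENCODE M21. Intervals are 95%. Per the study's methods, the 3 groups were sorted from 3 distinct co-cultures; the labels do not tie replicate numbers to them.

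The 10 genes and the lists were chosen with earlier results of these data known. Named from each list were its 3 most abundant genes and the called genes with the largest rise and the largest fall in mKate2- cells. On simulated data in which 200 genes changed 4-fold, edgeR recovered 200 in each comparison, with 0, 0 and 12 false calls among 12950, 13003 and 11720 genes for mKate2- against astrocytes, mKate2+ against astrocytes and mKate2+ against mKate2-. The simulation gave every gene the same dispersion, changed only well-counted genes and held no outlying library. It therefore does not cover uneven genes such as Sparcl1 or genes at few counts.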

Additional observations from a re-analysis of the deposited data

How the results depend on the processing

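The 8 genes called lower than in astrocytes kept their direction and their call under every alternative but 1: DESeq2 called 7, as it gave no adjusted p for Sparcl1 (log2 fold change -7.72 and -7.63). Of these, Bcan, Ncan, Cspg5 and Ptprz1 passed the filter on low counts through astrocytes alone, so their calls are a description. Vcan in mKate2- and in mKate2+ cells passed or missed the adjusted p threshold depending on the library left out, without reaching a 2-fold change. Between mKate2+ and mKate2- cells, the 43 genes that passed the looser rule became 83 by DESeq2 and 259 without the filter, and ranged from 22 (without mKate2+ replicate 2) to 380 (without mKate2+ replicate 1) with 269 without mKate2+ replicate 3; 0 of the 10 genes passed in any of these. Signs near 0 turned there: with each library left out, Sparcl1 ran from -0.62 to 0.66, Tnc from -0.047 to 0.29 and Cd44 from -0.045 to 0.15, and with the replicate block Sparcl1 was -0.33. Each library's deviations from the mean of its group, gene by gene, were compared between groups. For same-numbered libraries these deviations correlated with r from -0.147 to 0.251 over 9 pairs, 3 of them over 0.1. In 10 of 18 cases a library's deviations correlated best with those of its own number in another group. The labels do not say whether a number marks 1 co-culture, so the numbers were not taken as pairs. By number, Sparc was higher and Cspg4 and Bcan lower in mKate2+ cells in 3 of 3, with 0 of the genes tested called under the block. The replicate block called 4562, 4598 and 0 genes. By the length of the longest transcript, Sparcl1 and Cspg4 in mKate2- cells, and Cspg5 and Ptprz1 in both SB28 groups, changed places in the order of TPM, and 6 of 30 group means moved beyond 1 SD: Sparc in all 3 groups (5873, 2104 and 2181 TPM), Cspg4 in astrocytes and mKate2- cells (6.87 and 1.29) and Ptprz1 in astrocytes (16.4). The counts of 1 to 20 per SB28 library limit the folds of Bcan, Ncan, Ptprz1 and Cspg5, and intervals cover the spread of 3 libraries a group.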

Other observations

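Further link protein and sulfotransferase genes are named here after their values were seen, and the calls over their whole lists are given above. Hapln4, a link protein gene known from perineuronal nets, was higher in SB28 cells, at 17.8 ± 2.65 CPM in astrocytes, 39.5 ± 2.23 CPM in mKate2- and 38.6 ± 0.994 CPM in mKate2+ cells (SD, n = 3 each), a log2 fold change of 1.17 ± 0.15 (SE, edgeR adjusted p = 0.000328) and 1.20 ± 0.15 (edgeR adjusted p = 0.000442). Hapln3, which passed the filter on low counts through astrocytes alone, fell from 1.16 CPM to 0.0793 ± 0.107 and 0.0863 ± 0.0878 CPM (SD, n = 3 each). In both SB28 groups replicate 3 carried that mean, at 0.201 and 0.176 CPM, and replicate 2 was at 0. Among chondroitin sulfotransferases, Chst15, which shares exonic bases with a gene on the opposite strand, rose from 7.21 CPM to 29.8 and 29.2 CPM, whereas Chst11 fell from 74.8 CPM to 23.2 and 24.02 CPM, Chst7 from 17.0 CPM to 5.37 and 5.05 CPM and Chst12 from 33.1 CPM to 14.7 and 15.7 CPM. Chst14 was not called, at 46.9, 40.8 and 43.5 CPM, and Chst3, at 6.31, 3.22 and 2.31 CPM, was called lower in mKate2+ cells but not in mKate2- cells, a difference between the groups that was not called in their own comparison. Csgalnact1, which adds the first sugar specific to chondroitin sulfate, rose from 9.43 CPM to 36.3 and 33.3 CPM.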
